A study of Mus musculus with 2 samples.

Results

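Genes that encode heterochromatin proteins, nuclear lamina proteins and histone lysine enzymes were located among the chromatin domain boundaries of immediate neuronal precursors of the mouse olfactory epithelium. The 10 members were chosen by name, from factors linked to the silencing and choice of olfactory receptor genes. They are 10 of the 21755 protein-coding genes (GENCODE M21, GRCm38) on the 19 autosomes and chromosome X. They comprise the HP1 genes Cbx1, Cbx3 and Cbx5, the lamina genes Lbr and Lmnb1, the methyltransferase genes Ehmt1, Ehmt2, Setdb1 and Suv39h2, and the demethylase gene Kdm1a. The cells were sorted by fluorescence from pups of strain FVB/NTac of mixed sex that carried an Ngn1-GFP reporter, with no treatment. In situ Hi-C, which joins DNA ends that neighbour each other in fixed nuclei, was made with the enzyme DpnII on 2 biological replicates of 2200000 and 2100000 cells. Both replicates form a single group and their contacts were combined before boundaries were called, so no value below has a replicate error, no comparison between conditions exists, and the depth is unknown. No expression values were analysed here, so the sorted cell type was not checked against markers.

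In a mature olfactory neuron a single olfactory receptor gene is expressed, and the other receptor genes are held in compact heterochromatin marked by methylated lysine 9 of histone H3. Methyltransferases such as SETDB1, SUV39H2 and the EHMT1-EHMT2 pair place this mark, and HP1 proteins read it. The lamina proteins lamin B1 and LBR can tether heterochromatin to the nuclear edge, but LBR is lost from olfactory neurons in mouse. The demethylase KDM1A (LSD1) is required for the choice of a receptor in mouse. The measurement here is of the genes that encode these factors, not of the heterochromatin they form.

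The list holds 7841 boundaries of 5 kb, positions where contacts across are depleted, and the authors gave each of them a class and a score. The strong class holds the higher scores, so a higher score is taken to mark stronger insulation. The definition of the score is not given in the sources used here. From the values, the weak class begins at 0.2 and the strong class at 0.5, and the median score is 0.533. A domain is taken as the sequence between the nearest boundary on each side of a gene start, and the start is the 5′ end of the gene model.

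The 10 genes lay inside 10 different domains, and none began at a boundary. Of the 10 starts, 0 lay within 10 kb of a boundary, against 16.4% of all protein-coding genes, a share at which 1.64 of 10 would be near one. The distance to the nearest boundary ran from 32.3 to 115 kb, with a median of 52.0 kb, against a median of 55.3 kb over all protein-coding genes (quartiles 21.4 and 102 kb). With 50 kb as the limit the count was 5 of 10, against 46.3% of all protein-coding genes. At 25 kb it was 0 of 10, against 27.8%, and inside an interval 0 of 10, against 5.07%. With all boundaries of the list, the members' median was thus close to that of all genes. With strong boundaries alone it was again 52.0 kb, against 99.0 kb over all protein-coding genes. No test was made of the counts.

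The order of these distances began with Kdm1a at 32.3 kb, followed by Lbr at 37.0 kb, Lmnb1 at 37.2 kb, Suv39h2 at 45.0 kb and Cbx1 at 49.1 kb. Cbx5 at 54.8 kb, Setdb1 at 62.2 kb, Ehmt2 at 73.5 kb, Cbx3 at 90.4 kb and Ehmt1 at 115 kb came after them. Boundaries are placed in steps of 5 kb, so neighbours in this order such as Lbr and Lmnb1 cannot be told apart. The nearer boundary lay upstream of the start for 6 of the 10 genes, against 54.1% of all protein-coding genes with a boundary on each side.

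**Figure D1:**
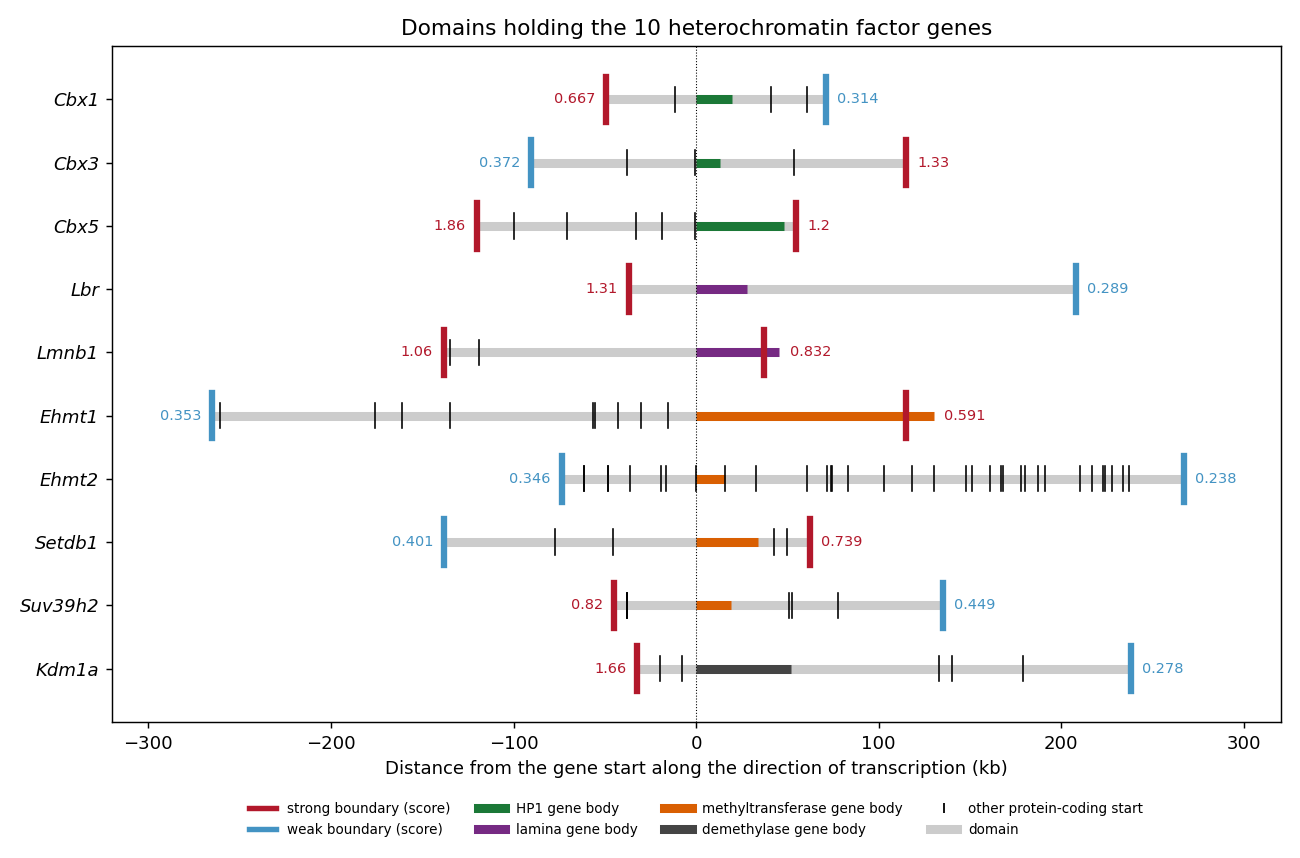
The 10 domains, 1 per row, with distance from the gene start along the direction of transcription in kb. Grey lines are domains, coloured bars gene bodies, black ticks other protein-coding starts, and vertical bars boundaries (red strong, blue weak) with their scores. The bodies of Lmnb1 and Ehmt1 extend past their downstream boundary, and the Ehmt2 domain holds 36 starts.

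The domains that hold these genes were of moderate size. Their length ran from 120 to 380 kb with a median of 202 kb, against a median of 270 kb for the domains of all protein-coding genes (quartiles 190 and 390 kb). Of the 10 lengths, 7 were under 270 kb, the Kdm1a domain had exactly that length, and the domains of Ehmt2 (340 kb) and Ehmt1 (380 kb) were longer. The domains held a median of 5.5 protein-coding starts, the member included, against 5 over all protein-coding genes, and the numbers ran from 1 for Lbr to 36 for Ehmt2.

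**Figure D2:**
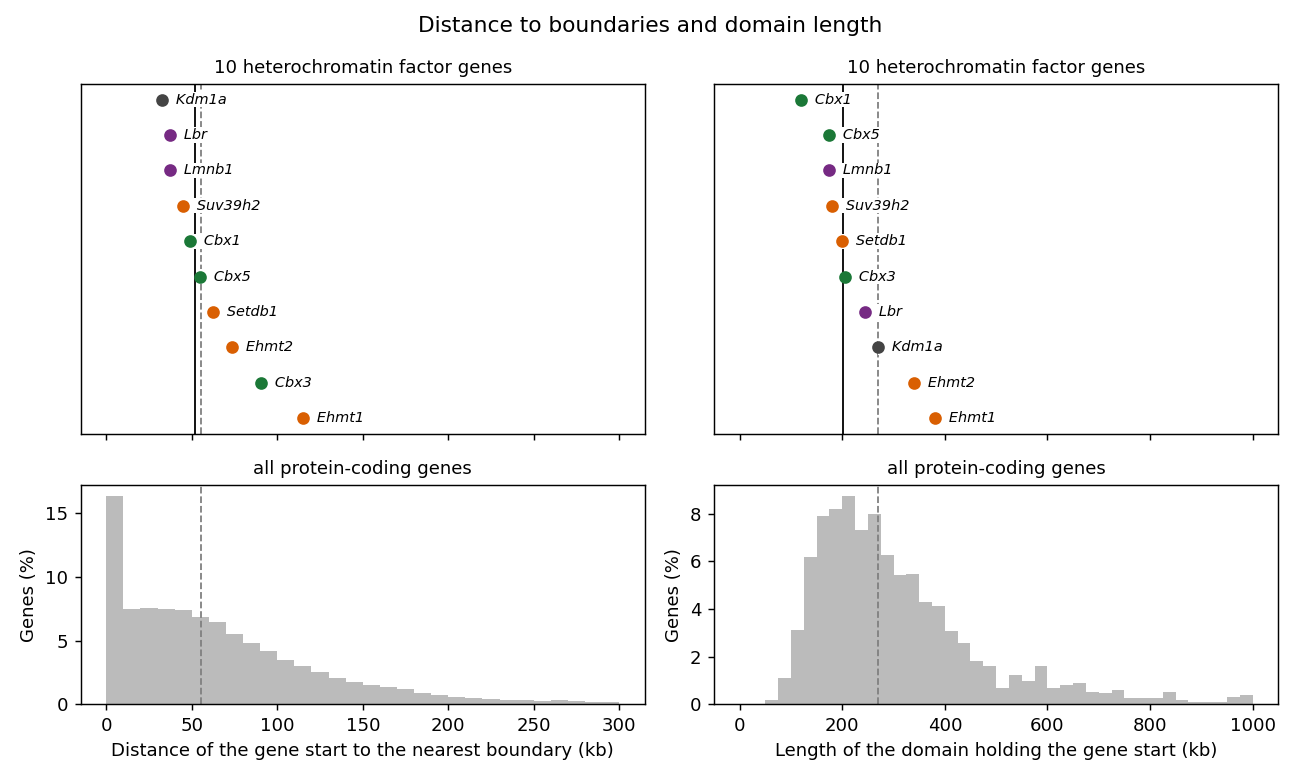
Distance of each gene start to the nearest boundary (left, kb) and length of its domain (right, kb). Points are the 10 genes (green HP1, purple lamina, orange methyltransferase, dark grey demethylase) and bars the share of all protein-coding genes per bin, up to 300 kb (left) and 1000 kb (right), beyond which lie 3.86% and 3.75% of genes. Solid lines are the members' medians (52.0 and 202 kb) and dashed lines those of all protein-coding genes (55.3 and 270 kb).

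The 20 boundaries that enclose the 10 genes were all distinct, and 11 were strong, against 52.8% of all boundaries, a share near that of the list. Their scores ran from 0.238 to 1.86 with a median of 0.629, against 0.533 over all 7841 boundaries. The list counts each boundary once, wherever it lies. Counted per protein-coding gene, the median score was 0.641 for the upstream and 0.624 for the downstream boundary, close to the members' median. The strong class is also more frequent when counted per gene, as the next shares show. A strong boundary on each side enclosed 2 genes, Cbx5 and Lmnb1, against 38.2% of all protein-coding genes. A strong boundary on one side and a weak one on the other enclosed 7 genes, against 48.9%. Ehmt2 alone among the members had weak boundaries on both sides, against 12.9%. The stronger boundary lay upstream of the start for 7 of the 10, against 51.2%, and it was the nearer one for 7 of the 10, against 51.3%.

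**Figure D3:**
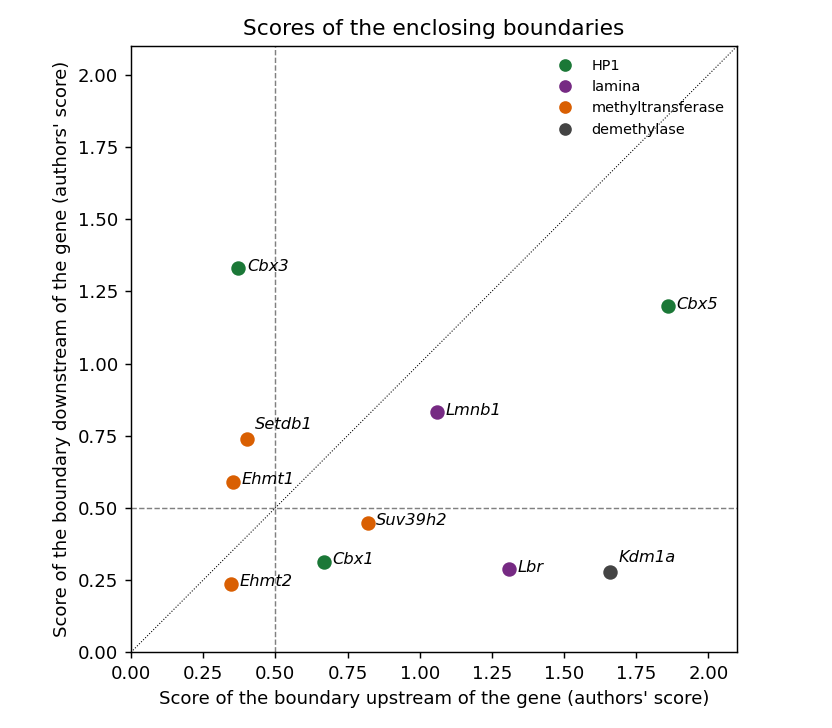
Score of the boundary upstream (horizontal) and downstream (vertical) of each of the 10 genes, on the authors' scale. Dashed lines mark the score of 0.5 at which the strong class begins, and the dotted line marks equal scores. Lbr and Kdm1a lie at the lower right, with a strong upstream and a weak downstream boundary, and Ehmt2 lies below 0.5 on both axes.

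The HP1 genes encode proteins whose chromodomain binds methylated lysine 9 of histone H3. Cbx1 (HP1 beta, ENSMUSG00000018666.13, plus strand of chromosome 11, 96789127 to 96808640) lay in the shortest of the 10 domains, 120 kb, at percentile 4.02 of the domain lengths of all protein-coding genes. A strong boundary with a score of 0.667 lay 49.1 kb upstream of its start, inside an intron of Skap1. A weak one with a score of 0.314 lay 70.9 kb downstream and overlapped an exon of Copz2. Cbx1 sat near the middle of this domain, with 40.9% of the way between the boundaries on its shorter side.

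Cbx3 (HP1 gamma, ENSMUSG00000029836.15, plus strand of chromosome 6, 51470360 to 51483704) had a domain of 205 kb. Its weak boundary (score 0.372) lay 90.4 kb upstream in intergenic sequence, and its strong boundary (score 1.33) lay 115 kb downstream at an exon of Snx10. The order of strong and weak was thus the opposite of that around Cbx1.

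Cbx5 (HP1 alpha, ENSMUSG00000009575.14, minus strand of chromosome 15, 103191544 to 103239816) was enclosed most strongly of the 10. The upstream boundary, in an intron of the integrin gene Itga5, had a score of 1.86, at percentile 97.6 of the list, and the intergenic downstream boundary had a score of 1.20. Their mean of 1.53 stood at percentile 98.8 of all protein-coding genes, and the domain measured 175 kb. The gene's far end, 48.3 kb from its start, lay close to the downstream boundary, which was 54.8 kb from that start.

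The 3 HP1 genes shared domains with paralogous neighbours. A gene of the Nfe2 factor family was in each of the 3 domains, at 40.8 kb from the start of Cbx1 (Nfe2l1), 37.7 kb from that of Cbx3 (Nfe2l3) and 18.6 kb from that of Cbx5 (Nfe2). Sorting nexin genes accompanied Cbx1 (Snx11, 11.6 kb) and Cbx3 (Snx10, 53.5 kb). Genes of the coatomer zeta subunit accompanied Cbx1 (Copz2, 60.7 kb) and Cbx5 (Copz1, 32.9 kb). Genes of RNA-binding ribonucleoproteins began 0.466 kb upstream of Cbx3 (Hnrnpa2b1) and 0.616 kb upstream of Cbx5 (Hnrnpa1), on the opposite strand. The 4 families account for all other protein-coding starts in the domains of Cbx1 and Cbx3, and the Cbx5 domain also held Gpr84, a receptor gene, and the zinc finger gene Zfp385a. These families were singled out from the contents of the 3 domains after those had been seen.

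**Figure D4:**
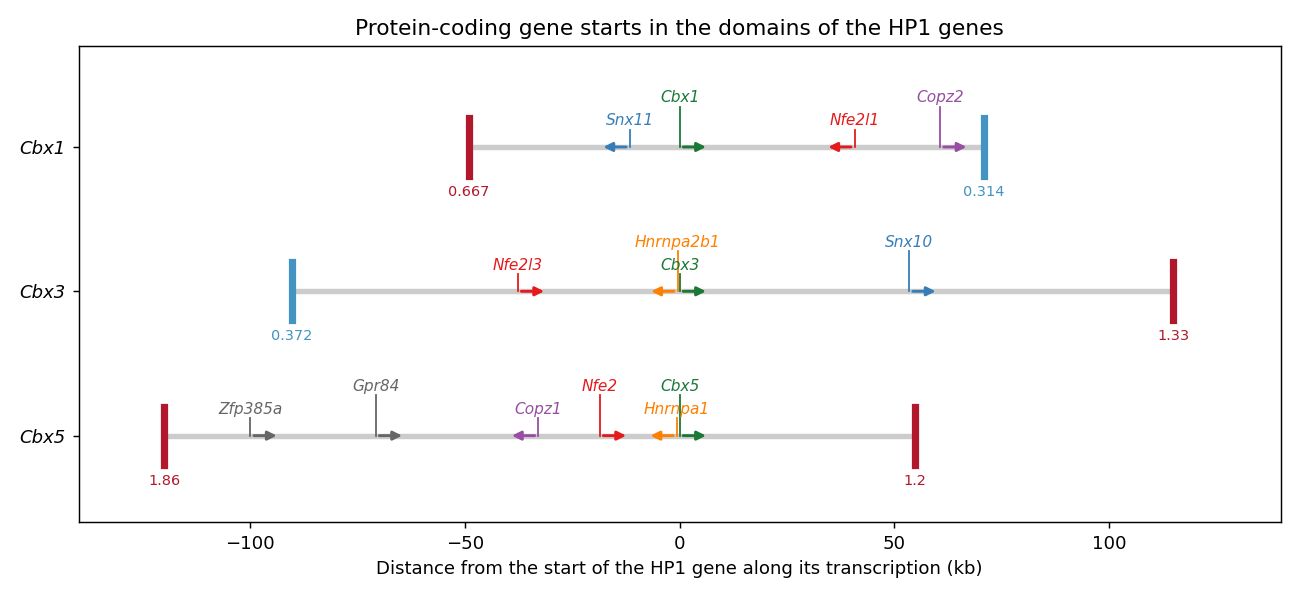
Protein-coding gene starts in the domains of Cbx1, Cbx3 and Cbx5, by distance from the start of the HP1 gene along its transcription (kb). Arrows show the direction of transcription and colours the gene families (green HP1, red Nfe2, blue sorting nexin, purple coatomer zeta, orange ribonucleoprotein, grey other), and vertical bars are strong (red) or weak (blue) boundaries with their scores. A red arrow lies within each of the 3 domains.

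Cbx5 and Cbx1 also lay near Hox genes, which were outside their domains and were examined after these positions had been seen. Cbx5 began 0.221 Mb from Hoxc4 with 1 boundary between them, which was strong. Cbx1 began 0.423 Mb from Hoxb1 with 2 boundaries between, of which 1 was strong.

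Lbr and Lmnb1 encode proteins of the nuclear edge. LBR is the lamin B receptor, an inner nuclear membrane protein that binds HP1, and its loss from olfactory neurons in mouse accompanies the gathering of receptor genes in the nuclear interior. Lbr (ENSMUSG00000004880.11, minus strand of chromosome 1, 181815335 to 181843046) was the only protein-coding gene that started in its domain of 245 kb, against 9.93% of all protein-coding genes being alone in theirs. The domain held 4 other annotated gene starts. A strong intergenic boundary (score 1.31) lay 37.0 kb upstream of its start. The weak downstream boundary (score 0.289) lay 208 kb away at an exon of the dynein gene Dnah14, so that the start stood 15.1% of the way into the domain. Within 250 kb on either side of the Lbr start there were 2 protein-coding starts, itself included, at percentile 6.09 of all protein-coding genes.

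Lmnb1 (lamin B1, ENSMUSG00000024590.8, plus strand of chromosome 18, 56707813 to 56753424) was itself crossed by a boundary. The strong boundary from 56745001 to 56750000 (score 0.832) began 37.2 kb downstream of its start. It overlapped exons 9 and 10 of the 11 exons of the principal transcript, so 81.5% of the gene's length lay before it and 3.42 kb after it. On the other side a strong boundary (score 1.06) lay 138 kb upstream, 2.56 kb from the start of Phax, and the domain measured 175 kb. It also held Aldh7a1, an aldehyde dehydrogenase gene that began 2.95 kb from that boundary, and Tex43.

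A boundary overlapped the gene body of 2 of the 10 members, Lmnb1 and Ehmt1, against 17.7% of all protein-coding genes. Long genes hold boundaries more often, and among genes of 0.8 to 1.2 times the length of Lmnb1 the share was 21.5% of 1934. Among genes of like length to Ehmt1 it was 38.5% of 965.

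For the 4 methyltransferase genes, the mean score of the enclosing boundaries ran from 0.292 to 0.634, and each of the 4 was below the median of 0.697 over all protein-coding genes. Of their 8 enclosing boundaries 3 were strong, as were 4 of 6 for the 3 HP1 genes and 3 of 4 for the 2 lamina genes, against 52.8% of all boundaries. Each of these counts is within about 1 boundary of that share, which counts every boundary of the list once. Counted per gene, the strong class is more frequent: 38.2% of all protein-coding genes have it on both sides and 12.9% on neither. The counts are small and were not tested, so they are not read as setting the groups apart.

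Ehmt1 (GLP, ENSMUSG00000036893.17, minus strand of chromosome 2, 24789928 to 24919614) is, at 130 kb, the longest of the 10 genes, and its domain of 380 kb was the longest too. The strong boundary (24800001 to 24805000, score 0.591) lay inside the gene, 115 kb downstream of its start, and overlapped exons 21 to 25 of 27. The far end of the gene lay 10.1 kb beyond it. The weak upstream boundary (score 0.353) was 265 kb away, and 4.24 kb inside it began Nrarp, a regulator gene of Notch signalling. The nearest of the 9 other protein-coding starts were Arrdc1 at 15.6 kb, Zmynd19 at 30.2 kb and Dph7 at 42.8 kb, all upstream.

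Ehmt2 (G9a, ENSMUSG00000013787.15, plus strand of chromosome 17, 34898469 to 34914052), the partner of Ehmt1 in the dimethylation of lysine 9, lay in the most crowded of the 10 domains. Its 340 kb, in the gene-dense part of the major histocompatibility region, held 36 protein-coding starts, a number reached by 2.73% of all protein-coding genes and by 12 of 7821 domains (0.153%). Some of these gene models, such as Gm20547, overlap others, so the number depends on the annotation. The boundaries were weak on both sides, with scores of 0.346 at 73.5 kb upstream and 0.238 at 267 kb downstream, and their mean of 0.292 stood at percentile 3.46. The complement gene C2 began 0.204 kb upstream on the opposite strand, Slc44a4 began 16 kb downstream and Gm20547 began 16.4 kb upstream. Stk19 began 11.9 kb from the upstream boundary, and Prrc2a 0.104 kb from the downstream one. The nearest strong boundary was 338 kb from the Ehmt2 start.

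Setdb1 (ENSMUSG00000015697.14, minus strand of chromosome 3, 95323525 to 95357202), whose product trimethylates lysine 9, had a domain of 200 kb. A strong boundary (score 0.739) lay 62.2 kb downstream at an exon of Mindy1. A weak one (score 0.401) lay 138 kb upstream, and the cathepsin gene Ctsk started inside that interval. With it in the domain were Cers2, a ceramide synthase gene, 42.4 kb downstream, 4930558C23Rik 45.6 kb upstream, the annexin gene Anxa9 50 kb downstream and Arnt, which encodes a partner of hypoxia-inducible factors, 77.2 kb upstream.

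Suv39h2 (ENSMUSG00000026646.16, minus strand of chromosome 2, 3455815 to 3475031), another trimethylating enzyme, had a domain of 180 kb. A strong boundary (score 0.82) lay 45.0 kb upstream at an exon of Cdnf, a neurotrophic factor gene. A weak one (score 0.449) lay 135 kb downstream, and the start of Acbd7 was inside its interval. The starts of Hspa14 and Gm45902 (37.8 kb) and of Cdnf (38.0 kb), all upstream, were close together and lay 7.19, 7.21 and 6.97 kb from the strong boundary. Among the other starts inside the domain, that of Olah was the nearest to the weak boundary, at 57.2 kb.

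Kdm1a (ENSMUSG00000036940.15, minus strand of chromosome 4, 136550540 to 136602723) had the most unequal pair of boundaries of the 10. The upstream boundary, 32.3 kb away at an exon of Lactbl1, had a score of 1.66, at percentile 96.2 of the list. The downstream boundary, 238 kb away in intergenic sequence, had a score of 0.278, so the ratio of the higher to the lower score was 5.97. For Lbr, which had the same arrangement, the ratio was 4.52, and for the other 8 genes it ran from 1.28 to 3.59. The Kdm1a start stood 12% of the way into its domain of 270 kb. Tex46 (7.71 kb) and Lactbl1 (19.9 kb) began between it and the strong boundary. On the other side were Luzp1 (133 kb), 6030445D17Rik (140 kb) and the serotonin receptor gene Htr1d (179 kb).

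None of the 10 domains held an olfactory receptor gene. The share of all domains that hold one is not given here, so this is not read as a separation from receptor genes. The nearest receptor gene on the same chromosome was Olfr63 for Ehmt2 (1.63 Mb, 9 boundaries between) and Olfr1402 for Setdb1 (2.06 Mb, 7 boundaries between). It was Olfr279 for Cbx5 (4.75 Mb), Olfr220 for Lbr (7.40 Mb), Olfr47 for Cbx3 (8.24 Mb), Olfr464 for Cbx1 (8.87 Mb), Olfr338 for Ehmt1 (11.5 Mb), Olfr1328 for Kdm1a (17.7 Mb) and Olfr338 for Suv39h2 (32.9 Mb). None was annotated on the chromosome of Lmnb1.

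All 10 starts lay in sequence rich in CpG, the dinucleotide whose clusters mark the promoters of broadly expressed genes. Within 500 bases of the start the observed over expected CpG ratio ran from 0.748 to 1.04 with a median of 0.926, against a median of 0.558 over all protein-coding genes. A ratio above 0.6 with GC content above 50% was met by 10 of 10, against 44.8% of all protein-coding genes. A divergent protein-coding start within 1 kb upstream was found for 3 of 10 (Cbx3, Cbx5 and Ehmt2), against 6.84%. To show this composition, the 250 bases before the RefSeq start (GRCm38.p6), 5′ to 3′ on the gene's strand with each CpG in capitals, are given for a gene with a divergent partner (Cbx5) and for Cbx1 and Kdm1a, which have none. They span chr15:103239853-103240102 (minus strand), chr11:96788885-96789134 (plus) and chr4:136602724-136602973 (minus).
Cbx5: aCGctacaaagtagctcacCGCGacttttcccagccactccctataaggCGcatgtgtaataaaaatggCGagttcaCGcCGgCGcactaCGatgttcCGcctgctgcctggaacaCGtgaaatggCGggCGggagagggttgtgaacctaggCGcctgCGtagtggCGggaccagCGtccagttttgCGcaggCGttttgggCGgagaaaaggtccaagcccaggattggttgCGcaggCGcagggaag
Cbx1: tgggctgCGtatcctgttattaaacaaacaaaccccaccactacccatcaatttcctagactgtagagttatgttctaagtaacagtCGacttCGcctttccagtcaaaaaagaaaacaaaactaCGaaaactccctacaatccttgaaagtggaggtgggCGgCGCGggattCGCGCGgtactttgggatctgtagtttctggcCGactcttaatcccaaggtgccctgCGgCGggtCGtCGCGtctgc
Kdm1a: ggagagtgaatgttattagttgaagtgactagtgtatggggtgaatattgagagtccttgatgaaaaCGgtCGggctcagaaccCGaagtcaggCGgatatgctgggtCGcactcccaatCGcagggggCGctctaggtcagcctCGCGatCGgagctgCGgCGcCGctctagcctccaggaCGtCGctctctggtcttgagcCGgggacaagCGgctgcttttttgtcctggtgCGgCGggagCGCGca
They hold 22, 16 and 21 CpG, against a median of 6 over 32851 RefSeq promoters. The CpG of Cbx1 lie mostly towards the start, while those of Cbx5 are spread over the window.

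Matches to the core consensus of CTCF, the insulator protein found at many domain boundaries, were looked for at the 20 enclosing boundaries, as exact matches of its 12 bases on either strand. Within the interval and 10 kb on each side, 4 of 20 boundaries held a match, against 26.0% of all boundaries and 10.7% of all 25 kb windows of the chromosomes. The members' share of boundaries with a match was thus not above that of all boundaries. By class it was 2 of 11 strong boundaries, against 33.7% of all strong ones, and 2 of 9 weak boundaries, against 17.4%. In the interval alone it was 1 of 20, against 6.9%. The 4 matches are shown 5′ to 3′ on their own strand, with the 12 matched bases in capitals, because they are the candidate binding sequences at these boundaries.
Cbx1 downstream boundary: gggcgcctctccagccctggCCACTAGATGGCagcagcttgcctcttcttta
Cbx5 downstream boundary: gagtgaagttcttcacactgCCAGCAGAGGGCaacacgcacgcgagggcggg
Lbr upstream boundary: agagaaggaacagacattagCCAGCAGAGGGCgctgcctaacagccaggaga
Ehmt2 downstream boundary: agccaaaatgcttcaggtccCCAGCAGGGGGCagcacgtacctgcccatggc
They lie at chr11:96860749-96860800 (minus strand), chr15:103178344-103178395 (minus), chr1:181888936-181888987 (plus) and chr17:35178667-35178718 (plus). The match near Cbx1 lay inside the boundary interval and pointed into the domain of Cbx1. The other three lay 1.63, 3.96 and 8.69 kb from their intervals and pointed away from the domains of Cbx5, Lbr and Ehmt2. The 4 matches belonged to different domains, so no domain could have one pointing inwards at both ends. Directions were not counted over all boundaries, so these are not read as particular to the members. With 1 mismatch allowed, all 20 boundaries held a match, against 89.1% of all boundaries. A match is a description of the letters, and binding of CTCF was not analysed here.

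Of the 20 enclosing boundaries, 11 overlapped an exon of a protein-coding gene, against 33.8% of all boundaries. Introns held 3, against 14.7%, and 6 were intergenic, against 51.5%. A protein-coding start lay within 10 kb of 8 of the 20, against 34.3%, though none of those starts was that of a member. These shares are over the whole list, wherever the boundaries lie, while the 20 were picked because they flank a gene. The differences are thus not read as particular to the members. The exon overlaps include the boundaries inside Lmnb1 and Ehmt1, which lie on the members' own exons.

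Among 52 other genes of the same pathways, 10 started within 10 kb of a boundary, 19.2% against 16.4% of all protein-coding genes. Their median distance was 51.8 kb and their median domain length 250 kb, against medians of 52.0 and 202 kb for the 10 members and of 55.3 and 270 kb for all protein-coding genes. The genes near boundaries included paralogs of members that were not near one. Other paralogs of members among the 52 were not near a boundary, so those named next were picked by their position. Suv39h1, the paralog of Suv39h2 on chromosome X, started inside a weak boundary interval (score 0.30). Kdm1b, the paralog of Kdm1a, started inside a strong one (score 0.964).

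The 10 genes near a boundary were spread over 6 lists of 3 to 12 genes, too few in each to be read against the 16.4% of all protein-coding genes. Of 9 demethylases of lysine 9, the 4 near a boundary were Kdm3a, which started inside an interval (score 0.35), Kdm4c (2.50 kb, score 0.827), Phf8 (4.33 kb, score 0.284) and Kdm3b (7.95 kb, score 0.427). Of the 3 methyltransferases of histone H4, Kmt5b started 2.58 kb from a strong boundary (score 0.61). Of 12 lamina and inner nuclear membrane genes, Tor1aip1, which encodes a lamin-binding membrane protein, started inside an interval with a score of 1.25. Of 11 other silencing factors, Chd4, a remodeller gene, started 0.981 kb from a boundary (score 0.991) and Morc2a inside an interval (score 0.205). The remaining list, of partners of KDM1A, gave 1 of 9, which was Kdm1b, and that of partners and readers of lysine 9 methylation gave 1 of 8, which was Suv39h1.

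By annotation, 3 of the 10 members had further starts nearer to a boundary, by more than 1 kb, than the gene model's 5′ end. A transcript of Ehmt1 annotated as a target of nonsense-mediated decay began 1.35 kb from the boundary inside that gene. A protein-coding transcript of Cbx5 began 30.3 kb from its downstream boundary, and a retained-intron transcript of Lmnb1 began 16.6 kb from the boundary inside it. Whether the cells use these starts was not analysed here.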

How the data were processed

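In situ Hi-C was made on 2 biological replicates. Per the series' design text, the authors combined both contact lists and called boundaries on the resulting matrix, and the build is GRCm38, per the submitters' processing notes. Which caller and cutoffs were used is not given in the sources used here. Each boundary of the deposited list has a class and a score, the authors' own value, used only to describe boundaries within this list. A boundary could come from 1 replicate alone, and a deeper replicate weighs more.

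Genes came from GENCODE M21 and sequence from GRCm38.p6, the same build but not the strain of the cells. Distances run to the nearest edge of an interval, and a percentile is among all protein-coding genes unless the list of boundaries is named. A start inside an interval was placed in the domain holding most of the gene body. Of the 10 members, 9 matched an entry among the RefSeq promoters. The placement code was tested on simulated boundaries (Python 3.11.15, numpy 2.4.6, pandas 2.3.3).

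The members and pathway lists were chosen with earlier results of these data known, so no test of chance was made, and members are set beside all genes. Named are the members, up to 5 other genes of a domain (where there are more, the nearest 3 and the nearest to each boundary), pathway genes within 10 kb of a boundary and the nearest receptor genes. Genes at the enclosing boundaries, and Hox genes, were named after their values were seen. Some genes examined are not reported here.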

Additional observations from a re-analysis of the deposited data

How the results depend on the processing

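The count of members within 10 kb of a boundary was 0 with strong boundaries alone and with scores at or above the median. It was also 0 with boundaries within 50 kb merged and at a limit of 0 kb. These settings only remove boundaries or narrow the limit, so the count could not rise from 0 under them. Merging within 50 kb also left the median distance and median domain length unchanged, for members and for all protein-coding genes. None of the domains holding protein-coding starts was under 50 kb, so merging was no real alternative. At the wider limit of 25 kb the count was 0 too. It became 1 with any transcript start (Ehmt1), against 20.8% of all protein-coding genes, and 5 at 50 kb, against 46.3%. The median domain length moved to 445 kb with strong boundaries alone and likewise with scores at or above the median, against 475 and 510 kb over all protein-coding genes. Suv39h2 then had no boundary on its lower side and left 9 members. With scores at or above the median, 9 members were enclosed by strong boundaries on both sides, by construction, since that median is above 0.5. Of the 52 pathway genes, 5 were within 10 kb with strong boundaries alone (against 10.6% of all protein-coding genes), 5 with scores at or above the median (10.2%) and 18 with any transcript start (20.8%). At limits of 0, 25 and 50 kb they numbered 5, 16 and 26, against 5.07%, 27.8% and 46.3% of all protein-coding genes. Boundaries with a CTCF match numbered 1 in the interval alone and 20 with 1 mismatch allowed. With strong boundaries alone, and with scores at or above the median, the median enclosing score was 1.04. This rise is by construction, since lower scores were left out. The median gene number was then 9, as over all protein-coding genes. The members' median distance stayed 52.0 kb, while that of all protein-coding genes went from 55.3 kb to 99.0 and 105 kb. Under the alternatives run, the medians of distance and gene number stayed between the members' second-lowest and second-highest values. The median score lay between the central scores of the 20 boundaries at 0.353 and 1.06 (95% interval of the median, by rank). The members were chosen by name, so these limits describe their spread and are no sampling error. No paired analysis was possible because the boundaries were called on combined replicates, and for the same reason no replicate could be left out. The depth behind the calls is unknown, so what it limits cannot be stated.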
